A study of Mus musculus with 10 samples.

Results

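The genes described are 10 mouse genes of antigen presentation on major histocompatibility complex (MHC) class II, chosen by name: the classical chains H2-Aa, H2-Ab1 and H2-Eb1, the peptide-exchange chains H2-DMa, H2-DMb1 and H2-DMb2, the H2-O chains H2-Oa and H2-Ob, the invariant chain Cd74 and the transactivator Ciita. All 10 were found among the 28585 genes of the deposited count table, and all 10 were among the 15151 genes kept by the filter on low counts. The 10 libraries, in 3 groups, were made from fluorescent cells that had been sorted out of the ischemic hemisphere of the mouse brain.

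Microglia, the resident phagocytes of the brain, came from CX3CR1CreERT2:Rosa26-tdT mice aged 13 to 14 weeks, in which an inducible Cre driven by the fractalkine receptor gene Cx3cr1 switches on a red reporter (replicates 39, 40 and 41, n = 3). Parabiotic CD11c cells were the CD11c-eYFP+ cells of C57BL/6 mice aged 15 to 16 weeks that had been joined surgically to a Tg(Itgax-Venus)1Mnz partner (3 libraries, replicates 3, 11 and 15). The partner carries a yellow fluorescent protein under the promoter of Itgax, the CD11c gene, so a fluorescent cell in the C57BL/6 brain carries the reporter of the partner. Transgenic CD11c cells were the CD11c-eYFP+ cells of Tg(Itgax-Venus)1Mnz mice themselves, aged 13 to 14 weeks (4 libraries, replicates 23, 24, 26 and 27), where any Itgax-expressing cell, brain-resident or infiltrating, can carry the reporter. All mice were female by the labels or the series title, and all tissue was ischemic, so no group shows the level of these genes without ischemia. Parabiotic replicate 15 lacks a cell type label and any mention of parabiosis, and it was placed by its title. The groups differ in age, genotype and surgery as well as in the sorted cells, and these cannot be told apart.

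MHC class II molecules show peptides from engulfed material to CD4 T cells. The classical α and β chains assemble in the endoplasmic reticulum with the invariant chain CD74, which blocks the peptide groove and directs the complex to endosomes. There CD74 is degraded to a short peptide. H2-DM exchanges that peptide for antigen, and H2-O restrains H2-DM. CIITA does not bind DNA itself. It is recruited by a complex of RFX, CREB and NF-Y proteins on conserved boxes, called X, X2 and Y, upstream of class II genes. Its own transcription starts from separate promoters in dendritic cells, in B cells and after interferon-γ. Dendritic cells carry much class II, and microglia are known to induce it on activation.

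Libraries held 31534625 to 41730688 counts, and levels are given as CPM, the counts of a gene relative to the TMM-scaled total of its library. The library numbers of transgenic replicates 26 and 27 lie apart from those of the other 8 libraries. Both libraries also stood apart in the class II genes, so the calls of the members in that group are given with and without them. Summed over 10 marker genes, the microglial level was 21263 to 23678 CPM in microglia, 2108 to 3671 CPM in parabiotic CD11c cells and 12569, 12731, 18581 and 6399 CPM in transgenic replicates 23, 24, 26 and 27. The 10 markers of conventional dendritic cells summed to 46.4 to 81.6 CPM in microglia, 1396 to 1884 CPM in parabiotic cells and 961, 943, 275 and 349 CPM in the transgenic libraries in the same order. Of 10 markers of B cells, which are also rich in class II, 9, 8 and 9 averaged below 1 CPM in microglia, parabiotic and transgenic cells. Pax5, a B cell transcription factor gene, was at most 0.274 CPM in any library. In bulk samples, fewer cells of a type and less RNA per cell cannot be told apart. Itgax, whose promoter drives the reporter, was at 22.6, 56.9 and 53.7 CPM in microglia, at 541.6, 441.5 and 528.3 CPM in parabiotic cells and at 349, 318, 114 and 116.8 CPM in transgenic replicates 23, 24, 26 and 27.

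Of the members, 8 lie on chromosome 17, from H2-Oa at 34092340 to the end of H2-Eb1 at 34316674 (GRCm38), while Ciita lies on chromosome 16 (10480059 to 10528418) and Cd74 on another chromosome. RefSeq promoter windows (GRCm38.p6, 250 bases before to 50 after the start site) were given for 7 members, and H2-Ab1, Ciita and Cd74 had none. The stretches below each hold at least the letters of a Y box, among the motifs through which CIITA is known to act. They come from genes that differed widely in how much they changed. Capitals mark a Y box (ATTGG), an X box core (AACNGATG or the looser AACNNATG) or an X2 box (TGACGTCA).
H2-Eb1 (chr17:34305758-34305827, plus strand): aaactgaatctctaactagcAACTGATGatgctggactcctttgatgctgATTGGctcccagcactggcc
H2-Eb2 (chr17:34325525-34325594, plus strand): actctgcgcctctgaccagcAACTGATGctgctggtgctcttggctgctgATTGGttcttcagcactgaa
H2-DMb2 (chr17:34145109-34145178, plus strand): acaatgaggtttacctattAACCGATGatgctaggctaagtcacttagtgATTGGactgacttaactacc
H2-Ob (chr17:34238798-34238867, plus strand): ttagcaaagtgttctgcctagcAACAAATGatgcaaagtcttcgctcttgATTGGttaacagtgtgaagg
H2-Aa (chr17:34287852-34287921, minus strand): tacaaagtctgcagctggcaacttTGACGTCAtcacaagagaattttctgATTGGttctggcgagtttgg
H2-DMa (chr17:34125270-34125339, plus strand): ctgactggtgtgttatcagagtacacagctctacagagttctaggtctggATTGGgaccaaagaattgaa
H2-Eb2, which is not a member, is shown as the neighbouring β chain gene beside H2-Eb1, with 44 of 70 positions identical between their stretches.

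All 7 members with a window held the Y box ATTGG, which also stood in 37.4% of 32851 mouse promoter windows of the same length. The X box core AACNGATG lay 22 bases before the Y box in H2-Eb1 and 23 bases before it in H2-DMb1 and H2-DMb2, whose stretches were identical at 61 of 70 positions. That core was in 2.32% of all windows, and a core followed within 40 bases by a Y box on the same strand was in 17 windows, or 0.0517%. H2-Ob matched only the looser core, AACAAATG, 20 bases before its Y box. A looser core followed by a Y box was in 0.344% of windows. H2-Aa held the X2 box TGACGTCA 18 bases before its Y box (1.79% of windows), and H2-DMa and H2-Oa held a Y box with no X box core in the window. The Y box of H2-DMa began 198 bases before the start site, against 43 to 90 bases in the other members with a window. A second X2 form, TGCGTCA, was in 2.12% of windows and in no member. A 13-letter form of the X box was found in H2-Eb1 alone among the members (0.00913% of windows), and an 11-letter looser form in H2-Eb1, H2-DMb1 and H2-Oa (0.968%). All motifs were searched on both strands, the long forms and the cores overlap, and the short cores were chosen after the sequences had been seen. A match is a description of letters in a window and not a measured binding site.

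In parabiotic CD11c cells the 10 members took 3.14% to 3.97% of all counts, and the classical chains and Cd74 alone 3.06% to 3.86%. In microglia the 10 members took 0.0482% to 0.0657%. The classical chains, Cd74 and Ciita were 90.1-fold to 206-fold higher than in microglia, the H2-DM β chains 5.22-fold and 17.5-fold, H2-Oa 6.73-fold and H2-DMa 2.11-fold. With edgeR, 9 of the 10 members were higher at an adjusted p under 0.05, and H2-Ob alone did not pass. Among all genes tested 17.4% were called higher and 17.9% lower. The libraries of both groups did not overlap for any of the 10 members, where 30.5% of all genes had every parabiotic library above every microglial one. The median log2 fold change was 5.31 over the members and -0.02 over all genes tested.

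Ciita, the transactivator, was at 0.734, 0.982 and 0.791 CPM in microglia, from 26, 32 and 25 counts, and at 160.6, 120.8 and 159.7 CPM in parabiotic replicates 3, 11 and 15. The microglial values were close to the detection limit, and the parabiotic values lay far above them in every library. Ciita shares 3.5% of its exon bases with the antisense gene Dexi, and the library kit does not mark strand. Dexi had 362, 406 and 341 counts in microglia, more than Ciita, and its part in the microglial counts of Ciita was not tested. The log2 fold change was 7.45 ± 0.91 (SE, edgeR adjusted p = 0.000119).

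H2-Ab1, the β chain of I-A, was at 52.8, 75.3 and 48.1 CPM in microglia and at 10131, 7703 and 10220.4 CPM in parabiotic cells. Its partner H2-Aa, the α chain, was at 29.4, 43.3 and 22.5 CPM against 6128, 4905 and 6202 CPM. H2-Eb1, the β chain of I-E, was at 24, 36.7 and 19.5 CPM against 5969, 4451 and 6074 CPM. In all 3 chains microglial replicate 40 was the highest of its group and parabiotic replicate 11 the lowest of its own. In microglial replicates 39, 40 and 41 the border-associated macrophage markers summed to 321, 449.2 and 272.6 CPM. The dendritic cell markers summed to 46.4, 81.6 and 73.8 CPM in the same order. Of this sum Itgax alone made up 22.6, 56.9 and 53.7 CPM, so the differences in the sum were mainly those of 1 gene. The part of either cell type in these levels was not tested. Parabiotic replicate 11, the lowest of its group in all 10 members, was the highest in the sum of 8 neutrophil markers (187.2, 915.5 and 315.9 CPM in replicates 3, 11 and 15), whose part in the class II levels was not tested. The log2 fold changes were 7.32 ± 0.61 for H2-Ab1, 7.50 ± 0.55 for H2-Aa and 7.68 ± 0.63 for H2-Eb1 (SE, edgeR adjusted p = 1.16e-05, 5.98e-06 and 1.08e-05). As background, mice of the b haplotype, to which C57BL/6 belongs, carry a deletion in the promoter of the I-E α chain gene and make no I-E protein. The row H2-Ea-ps held 0 counts in every microglial library, 6, 4 and 0 in parabiotic replicates 3, 11 and 15, and 1, 2, 0 and 2 in transgenic replicates 23, 24, 26 and 27, so transcripts of H2-Eb1 were abundant where those of its α chain were almost undetected.

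Cd74, the chaperone of the classical chains, was the most abundant member in every group, at 170.2, 214.1 and 146.2 CPM in microglia and 16706, 13851 and 17252 CPM in parabiotic cells. Its log2 fold change of 6.49 ± 0.55 (SE, edgeR adjusted p = 1.27e-05) was below those of the classical chains.

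The peptide editors differed less between the groups. H2-DMa, the α chain of H2-DM, was at 146.1, 145.7 and 138.3 CPM in microglia and 304.6, 255.7 and 346.9 CPM in parabiotic cells, a log2 fold change of 1.08 ± 0.27 (SE, edgeR adjusted p = 0.00981). Of its alternative β chains, H2-DMb1 was at 66.7, 60.3 and 59.7 CPM against 344.6, 265.9 and 363.5 CPM (log2 2.38 ± 0.34, SE, edgeR adjusted p = 0.000345). H2-DMb2 was at 6.5, 5.07 and 5.41 CPM against 106.2, 77.3 and 114.2 CPM (log2 4.13 ± 0.59, SE, edgeR adjusted p = 0.000312). The rarer β chain thus had the larger fold. These 2 genes share sequence: 369 of the 50-base windows of their transcripts occur in both, 22.65% of the windows of H2-DMb1 and 25.9% of those of H2-DMb2 occur in another gene. The sources used here do not say how reads of such windows were counted. H2-DMa shares 10.4% of its exon bases with the antisense gene Brd2, which had 5603 to 13097 counts per library, and the library kit does not mark strand.

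H2-Oa and H2-Ob, which encode the chains of the H2-DM inhibitor, differed from each other. H2-Oa was at 14, 17.7 and 15.1 CPM in microglia and 118.1, 79.4 and 117.4 CPM in parabiotic cells, a log2 fold change of 2.75 ± 0.62 (SE, edgeR adjusted p = 0.00529). H2-Ob was at 30.7, 37.1 and 34.2 CPM against 67.1, 50.6 and 85.6 CPM, a log2 fold change of 1.00 ± 0.47 that did not pass (SE, edgeR adjusted p = 0.124). Its libraries did not overlap between the groups, and it passed when transgenic replicates 26 and 27 were left out of the shared fit (log2 1.01, edgeR adjusted p = 0.000634), when replicate 27 alone was left out (0.0121), with a term for these libraries (0.0217) and with only the 2 groups compared in the fit (0.00175).

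**Figure D1:**
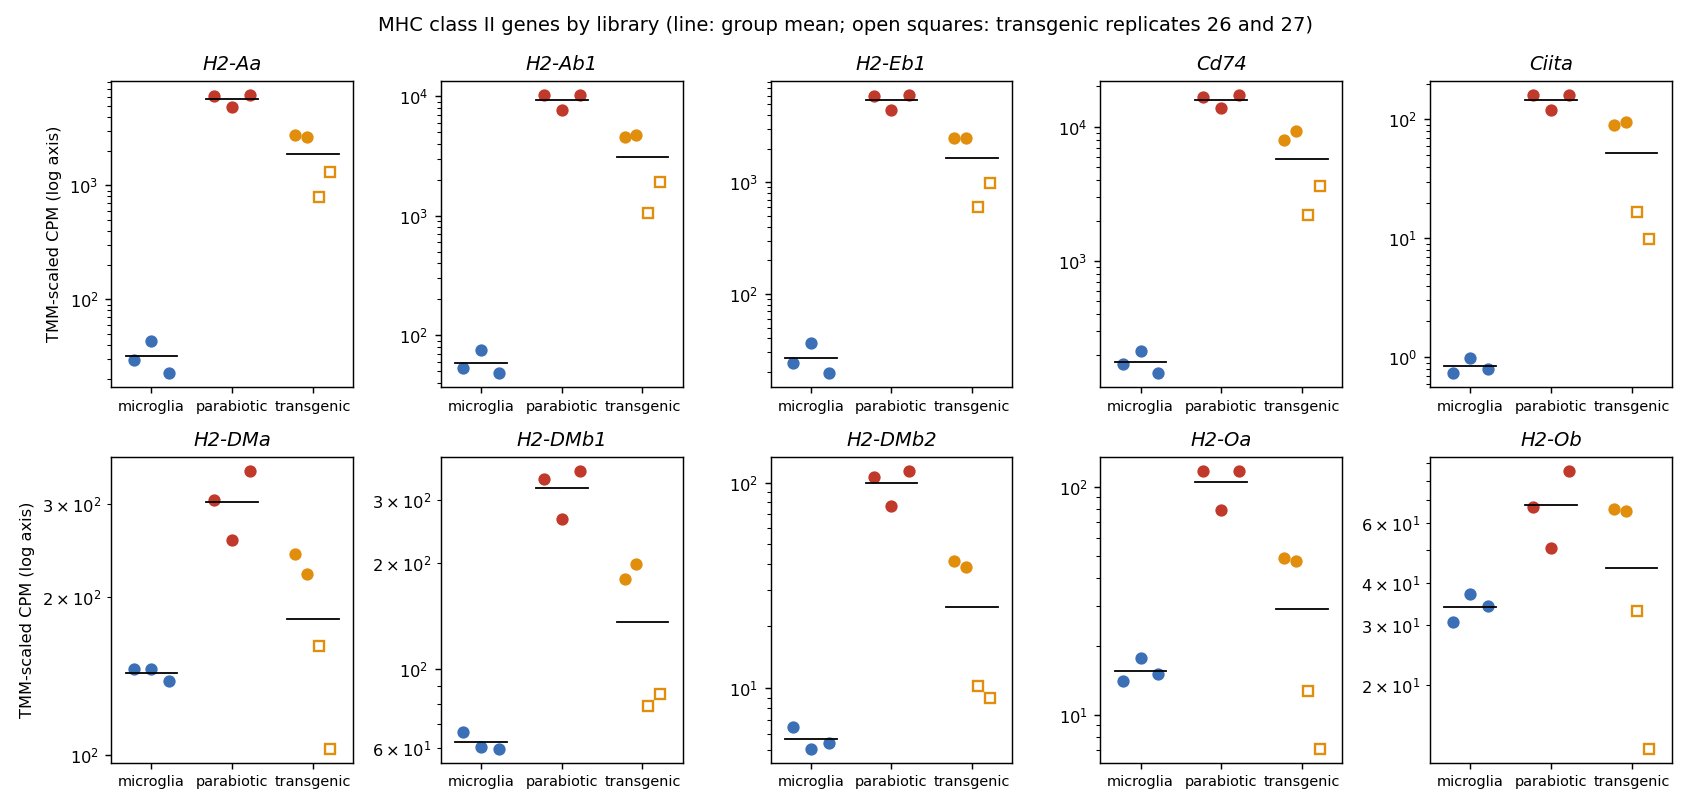
Level of each of the 10 class II genes (TMM-scaled CPM, log axis) in each library of microglia (3), parabiotic CD11c cells (3) and transgenic CD11c cells (4); the line is the group mean, and open squares are transgenic replicates 26 and 27. The parabiotic libraries lie above all microglial ones in every panel, and transgenic replicates 26 and 27 lie below replicates 23 and 24 in every panel.

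In transgenic CD11c cells the classical chains, Cd74 and Ciita were 32.7-fold to 62.6-fold higher than in microglia, while H2-DMa, H2-Oa and H2-Ob did not pass the test. With edgeR 7 of the 10 members were higher, where 8.88% of all genes tested were called higher and 4.79% lower. The libraries did not overlap for the same 7 members, against 15.6% of all genes with every transgenic library above every microglial one. The median log2 fold change was 3.58 over the members and 0.02 over all genes. The transgenic libraries were far from alike: the members took 1.9% and 2.02% of the counts in replicates 23 and 24 but 0.475% and 0.795% in replicates 26 and 27.

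Ciita was at 89.0 and 94.3 CPM in transgenic replicates 23 and 24 and at 16.8 and 9.86 CPM in replicates 26 and 27, so that the lowest library was 11.8-fold above the microglial mean of 0.836 CPM and the highest 113-fold. The log2 fold change over all 4 libraries was 5.97 ± 0.85 (SE, edgeR adjusted p = 0.00136).

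The classical chains had the same split between the libraries. H2-Ab1 was at 4578 and 4709.9 CPM in replicates 23 and 24 and at 1057 and 1918 CPM in replicates 26 and 27. In the same order H2-Aa was at 2748, 2630.2, 789.7 and 1305 CPM, and H2-Eb1 at 2498, 2483, 600.0 and 981.1 CPM. Even the lowest of these values, in replicate 26, was 18 to 24.9 times the microglial mean of its gene. The log2 fold changes were 5.71 ± 0.56 for H2-Ab1, 5.88 ± 0.50 for H2-Aa and 5.94 ± 0.58 for H2-Eb1 (SE, edgeR adjusted p = 0.00017, 0.000101 and 0.000165). Cd74 was at 8022, 9294, 2197 and 3644 CPM, a log2 fold change of 5.03 ± 0.51 (SE, edgeR adjusted p = 0.000181). In these 4 genes replicate 27 was above replicate 26, whereas in Ciita it was below.

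In the H2-DM and H2-O chains replicates 26 and 27 came down to the microglial range or near it. H2-DMb1 was at 179.9, 198.3, 79.1 and 85.4 CPM (log2 1.12 ± 0.32, SE, edgeR adjusted p = 0.0385) and H2-DMb2 at 41.6, 38.7, 10.3 and 8.94 CPM (log2 2.13 ± 0.52, SE, edgeR adjusted p = 0.0229). H2-DMa was at 241.3, 220.6, 161 and 102.9 CPM, H2-Oa at 48.7, 47.4, 12.7 and 7.06 CPM and H2-Ob at 65.9, 65.2, 33.0 and 13.0 CPM. Replicate 27 lay below every microglial library in all 3 of these genes, replicate 26 below every one in H2-Oa, and replicates 23 and 24 lay above them all. The log2 fold changes over the 4 libraries were 0.34 ± 0.25 for H2-DMa, 0.89 ± 0.55 for H2-Oa and 0.38 ± 0.44 for H2-Ob (SE, edgeR adjusted p = 0.374, 0.286 and 0.574).

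Without replicates 26 and 27 all 10 members were higher than in microglia, where 9.96% of 15446 genes tested were called higher, with log2 fold changes from 0.68 (H2-DMa) to 6.77 (Ciita). The difference in Ciita was then 109-fold, and those of the classical chains and Cd74 were 48.8-fold to 92.9-fold. With a term for these 2 libraries 8 members were higher (6.75% of all genes), H2-DMa and H2-Ob being the exceptions. The call of H2-DMb1 ended when any of 8 libraries was left out (microglia 39, 40 or 41, parabiotic 3, 11 or 15, transgenic 23 or 24; edgeR adjusted p = 0.0578 to 0.155), and that of H2-DMb2 without microglia 39, 40 or 41 (0.075 to 0.109). Beside these levels, the summed dendritic cell markers were lowest in replicates 26 and 27, and the summed microglial markers highest in replicate 26 and lowest in replicate 27. The sum of 8 monocyte markers was 1855.6, 1823.2, 709.1 and 2587.4 CPM in replicates 23, 24, 26 and 27, and that of 8 markers of border-associated macrophages 487.1, 578.2, 636.2 and 1345 CPM. Replicate 27 was thus the highest of the 4 in both sums, and replicate 26 the lowest in the monocyte sum. In replicate 27 the largest part of each sum was 1 gene, Fn1 at 1879.4 CPM and F13a1 at 946.5 CPM. Fn1 was also at 827.2 to 1207.6 CPM in microglia. The markers of both lists did not move together. Ccr2, Ly6c2, Folr2 and Ms4a7 were lowest of the 4 in replicate 27, and all others but Plac8 were highest there. The part these cell types play in the class II levels was not tested.

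**Figure D2:**
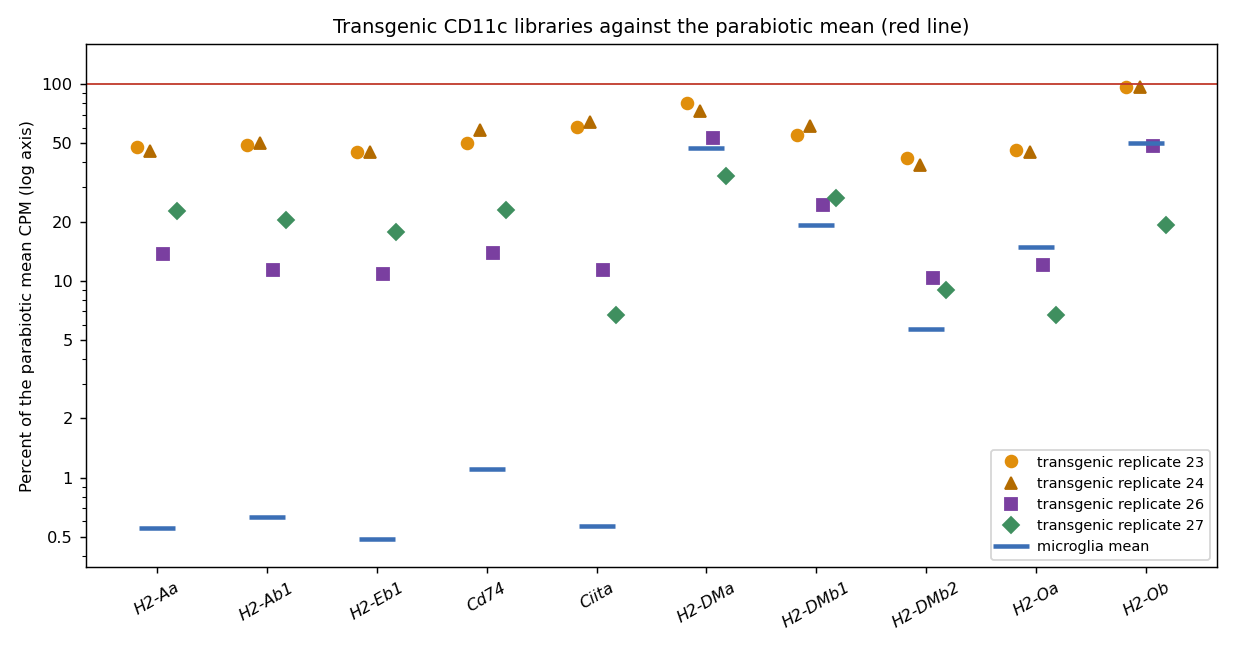
CPM of each class II gene in the 4 transgenic libraries and in the microglial mean, as a percent of the parabiotic mean (log axis, red line at 100%). Replicates 23 and 24 sit between 39% and 97.2%, replicates 26 and 27 between 6.71% and 53.2%, and the microglial mean at or below 1.11% for the classical chains, Cd74 and Ciita but at 47.4% and 50.1% for H2-DMa and H2-Ob.

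Set directly against parabiotic CD11c cells, transgenic CD11c cells had less of the classical chains (3.05-fold to 3.35-fold), of Cd74 (2.75-fold), of H2-DMb1 (2.39-fold) and of H2-DMb2 (3.99-fold). With edgeR these 6 members were lower, where 2.42% of all genes tested were called lower and 7.63% higher. For 9 of the 10, all but H2-Ob, every transgenic library was below every parabiotic one, which held for 10.3% of all genes. The median log2 fold change was -1.55 over the members and 0.04 over all genes. This comparison shares its libraries with the other comparisons, so its values are not independent of theirs.

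The classical chains were at 45.2% to 50.4% of the parabiotic mean in replicates 23 and 24 and at 10.9% to 22.7% in replicates 26 and 27. Their log2 fold changes were -1.62 ± 0.39 for H2-Aa, -1.61 ± 0.43 for H2-Ab1 and -1.74 ± 0.44 for H2-Eb1 (SE, edgeR adjusted p = 0.0218, 0.038 and 0.0289). Cd74 was at 50.3% and 58.3% in replicates 23 and 24 and at 13.8% and 22.9% in replicates 26 and 27 (log2 -1.46 ± 0.41, SE, edgeR adjusted p = 0.0437). The β chains of H2-DM had log2 fold changes of -1.26 ± 0.30 (H2-DMb1) and -2.0 ± 0.48 (H2-DMb2; SE, edgeR adjusted p = 0.0232 and 0.0233).

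Ciita was at 60.5% and 64.2% of the parabiotic mean in replicates 23 and 24 and at 11.4% and 6.71% in replicates 26 and 27. Its log2 fold change of -1.49 ± 0.62 did not pass (SE, edgeR adjusted p = 0.172), although every transgenic library was below every parabiotic one. H2-Oa had -1.86 ± 0.54, H2-DMa -0.74 ± 0.25 and H2-Ob -0.61 ± 0.43 (SE, edgeR adjusted p = 0.0527, 0.0914 and 0.445). H2-Ob was the member least separated, at 97.2% and 96.2% of the parabiotic mean in replicates 23 and 24.

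The count of 6 lower members rested on few libraries: without parabiotic replicate 3 or 15 edgeR called 0 of the 10 members (8 and 7 at an unadjusted p under 0.05). Without parabiotic replicate 11 it called 2, with only the 2 groups in the fit 1, and with no filter on low counts 2. DESeq2 and limma-voom on all libraries called 8 and 7. Cd74 and H2-Ab1 also lost their calls without any 1 of the 3 microglial libraries or transgenic replicate 27 (edgeR adjusted p at most 0.0699 for Cd74 and 0.06 for H2-Ab1). Without transgenic replicates 26 and 27, 8 members were lower (9.23% of all genes), with H2-DMa and H2-Ob not called. With a term for these libraries 6 were lower (2.53% of all genes), with H2-Oa in the place of Cd74, and the median over the members was -0.94. Within the 8 libraries of neighbouring numbers the differences were smaller: log2 -1.11 for H2-Aa, -1.03 for H2-Ab1, -1.16 for H2-Eb1, -0.90 for Cd74 and -0.70 for Ciita (edgeR adjusted p = 0.00836, 0.00633, 0.00807, 0.00715 and 0.00661).

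**Figure D3:**
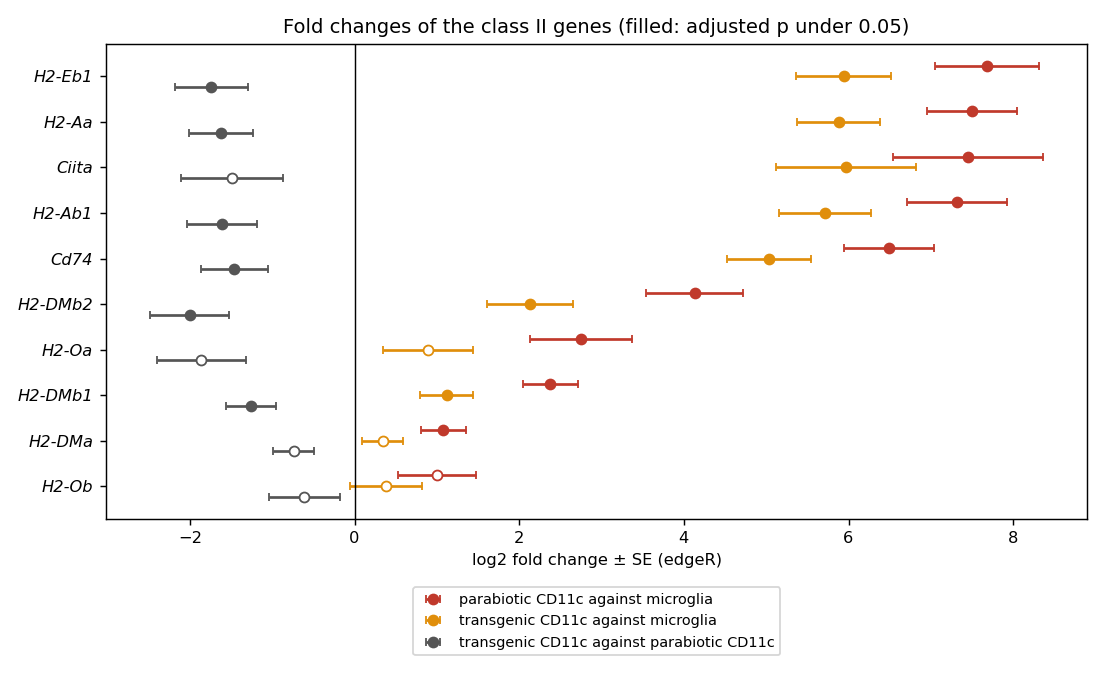
Log2 fold change with its standard error (edgeR, all 10 libraries in the fit) of each class II gene in the 3 comparisons; filled points have an adjusted p under 0.05. The classical chains, Ciita and Cd74 stand at 5.03 or more against microglia in both CD11c groups, H2-DMa and H2-Ob at 1.08 or less, and all 10 genes have values below 0 between the CD11c groups.

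Levels of different genes were compared per kilobase of exon. In parabiotic cells the order was Cd74 (9492 CPM per kb), H2-Ab1 (3642), H2-Eb1 (2828), H2-Aa (1513), H2-DMb1 (193), H2-DMa (87.7), H2-Oa (74.6), H2-DMb2 (56.8), Ciita (15.4) and H2-Ob (12.6). H2-Ab1 and H2-Eb1, H2-DMa and H2-Oa, H2-Oa and H2-DMb2, and Ciita and H2-Ob overlapped in range. In microglia the order was Cd74 (105 CPM per kb), H2-DMa (41.6), H2-DMb1 (37), H2-Ab1 (22.9), H2-Eb1 (13.8), H2-Oa (11.1), H2-Aa (8.36), H2-Ob (6.32), H2-DMb2 (3.24) and Ciita (0.0877), with overlapping ranges from H2-Ab1 to H2-Ob. The peptide editors H2-DMa and H2-DMb1 thus stood above the classical chains in microglia and below them in parabiotic cells. The transgenic order, from Cd74 (3448 CPM per kb) over H2-Ab1 (1194), H2-Eb1 (844), H2-Aa (492), H2-DMb1 (80.7) and H2-DMa (52.6) to H2-Oa (20.6), H2-DMb2 (14.2), H2-Ob (8.23) and Ciita (5.51), was the parabiotic one but for its last members, and over replicates 23 and 24 alone it was the same order at higher levels (9.61 CPM per kb for Ciita to 5157 for Cd74), with H2-Aa and H2-DMb1 the only neighbours that did not overlap over all 4 libraries. With the length of the longest transcript in place of all exons, 5 members in microglia and 2 in parabiotic cells changed rank, among them H2-Ab1, which then stood above H2-DMb1 in microglia.

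Ratios of counts within a library do not depend on its depth. Of 24 exact two-sided permutation tests (8 ratios in 3 comparisons), none could reach 0.05. The smallest p possible was 0.1 with 3 libraries against 3 and 0.0571 with 4 against 3, and the lowest adjusted p was 0.152. Counts of H2-DMa, H2-DMb1 and H2-DMb2 relative to those of the classical chains were 2.06, 1.36 and 2.26 in microglia, 0.034, 0.0351 and 0.0367 in parabiotic cells and 0.0471, 0.0466, 0.102 and 0.0469 in transgenic replicates 23, 24, 26 and 27. Counts of the editors thus exceeded those of the classical chains in microglia and were far below them in CD11c cells. The ratio was 52.5-fold lower in parabiotic cells and 32.5-fold lower in transgenic ones, or 39.5-fold over replicates 23 and 24 alone (exact permutation p = 0.1 and 0.0571, adjusted 0.16 and 0.152). The counts of H2-DMa may hold reads of the overlapping antisense gene Brd2, whose part was not tested. Cd74 relative to the classical chains was 1.38 to 1.62 in microglia, 0.752 to 0.812 in parabiotic and 0.817 to 0.946 in transgenic libraries, without overlap between any of the groups (exact permutation p = 0.1 against microglia for parabiotic cells, and 0.0571 for transgenic cells against either group; adjusted 0.16 and 0.152).

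For the alternative β chains of H2-DM and for the partner chains of H2-O no test could pass either. H2-DMb2 relative to H2-DMb1 was 0.0843 to 0.0976 in microglia, 0.291 to 0.314 in parabiotic cells and 0.231, 0.195, 0.13 and 0.105 in the transgenic libraries, in the order given above. H2-Oa relative to H2-Ob was 0.442 to 0.477 in microglia and 1.37 to 1.76 in parabiotic cells. These are raw counts of genes of unlike length (1.41 kb of exon in H2-Oa, 5.38 kb in H2-Ob), so they do not show which transcript was more abundant. Per kilobase of exon H2-Oa was above H2-Ob in microglia (11.1 against 6.32 CPM per kb) and in parabiotic cells (74.6 against 12.6). By the length of the longest transcript H2-Ob ranked above H2-Oa in microglia. The transgenic libraries had 0.739, 0.728, 0.385 and 0.542. Neither ratio overlapped between parabiotic cells and another group (exact permutation p = 0.1 and 0.0571, adjusted 0.16 and 0.152). H2-Oa overlaps the antisense gene BC051537 over 22.8% of its exon bases, but that gene had 4 to 23 counts per library.

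Other ratios overlapped between the groups. Counts of H2-Oa and H2-Ob relative to the H2-DM genes were 0.204 to 0.259 in microglia and 0.217 to 0.246 in parabiotic cells (exact permutation p = 0.8, adjusted 0.914), and 0.248, 0.246, 0.183 and 0.102 in the transgenic libraries. Ciita relative to the classical chains was 0.00642 to 0.00896 in microglia and 0.00708 to 0.00723 in parabiotic cells, although both sides of the ratio were over 100-fold apart between these groups. The transgenic libraries had 0.00906, 0.0096, 0.00687 and 0.00235 (exact permutation p = 1 and 0.971, adjusted 1). Ciita per classical chain transcript was thus lowest in transgenic replicate 27, where the classical chains were higher and Ciita lower than in replicate 26. With so few libraries, an absence of difference is not shown. The microglial ratio of Ciita also rests on 25 to 32 counts per library, which may hold reads of the antisense gene Dexi.

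**Figure D4:**
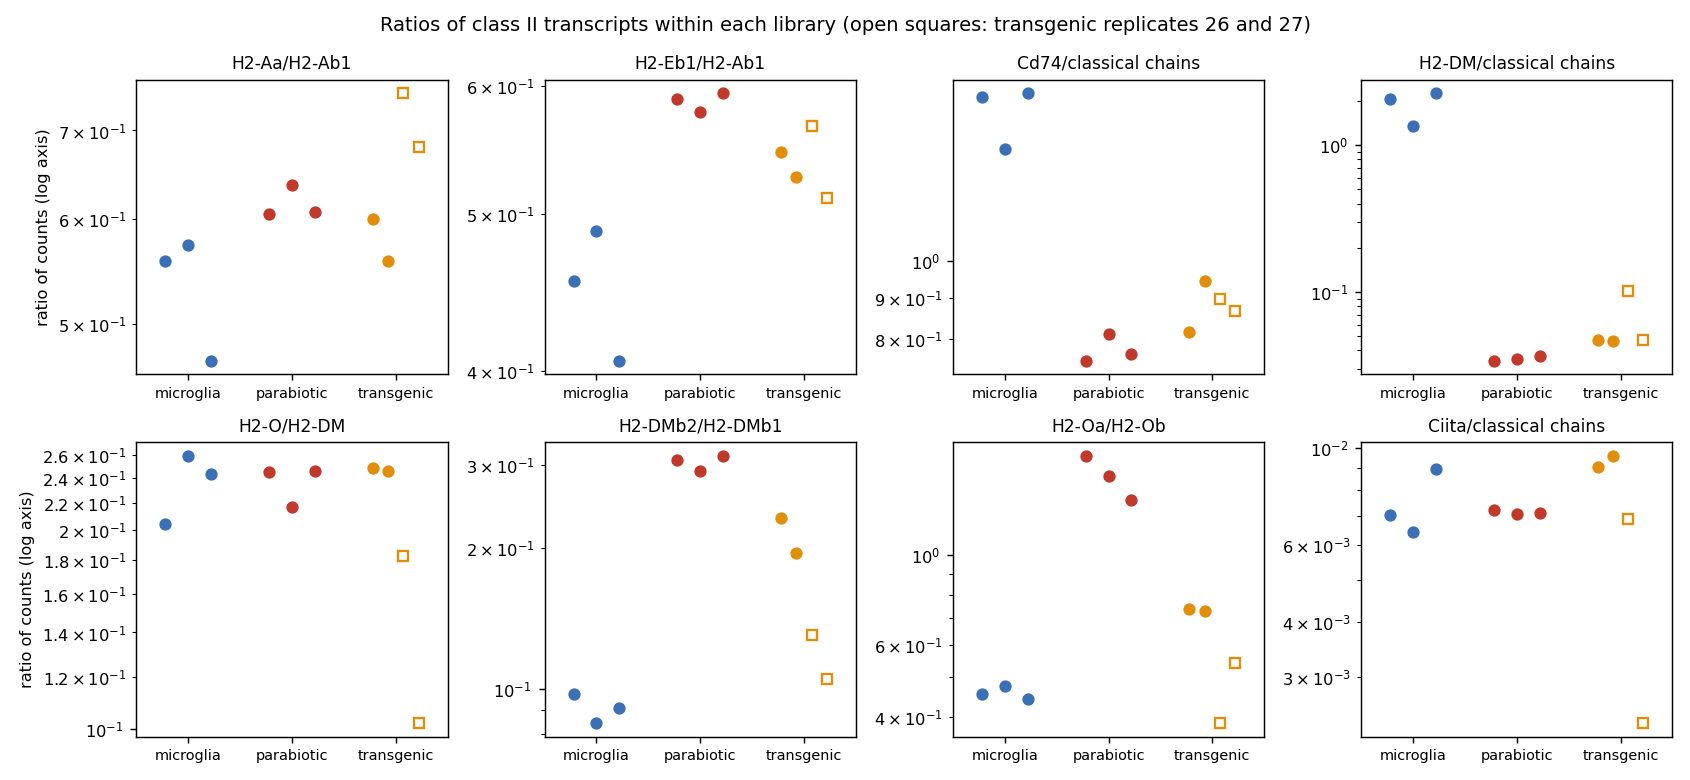
Ratio of counts within each library (log axis) for 8 pairs of class II genes or gene sums, with open squares for transgenic replicates 26 and 27; classical chains are H2-Aa, H2-Ab1 and H2-Eb1, H2-DM is the sum of its 3 genes and H2-O the sum of H2-Oa and H2-Ob. The ratio of H2-DM to the classical chains lies at 1.36 to 2.26 in microglia and at or below 0.102 in all CD11c libraries, while Ciita to the classical chains overlaps between microglia and parabiotic cells.

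Genes whose level over the 10 libraries ran closest to the class II genes were found by the root mean square distance between log2 CPM profiles, each centred on its own mean, among 7366 genes with at least 20 CPM in a group. Closest to the mean of H2-Aa, H2-Ab1 and H2-Eb1 were Plbd1 (distance 0.18), Dpp4 (0.23), Itgb7 (0.27), Cdh1 (0.4) and Klrk1 (0.43), against 0.43 for Cd74, 0.65 for Ciita, 2.74 for H2-DMa and 2.81 for H2-Ob. Plbd1, a phospholipase B-like gene, was at 1.71 to 4.02 CPM in microglia, 486 to 773.4 CPM in parabiotic cells and 326.1, 312.8, 90.7 and 162.6 CPM in transgenic replicates 23, 24, 26 and 27, with replicate 27 above replicate 26 as in the classical chains. Closest to Ciita were Btla (0.4), Kmo (0.42), Epcam (0.44), Ccr2 (0.46) and Igha (0.51), against 0.53 for Cd74 and 0.59 to 0.71 for the classical chains. Ccr2, a chemokine receptor of monocytes and dendritic cells, was at 6.39 to 7.21 CPM in microglia, 620.2 to 788.7 CPM in parabiotic cells and 361.5, 477, 146.7 and 130.9 CPM in the transgenic libraries, with replicate 27 the lowest as in Ciita. These distances describe 10 libraries in 3 groups and carry no test. They also depend on the pseudocount of 0.5 CPM, which sets the microglial end of profiles near 0 CPM. In microglia Igha was at most 0.0317 CPM, and Epcam and Cdh1 were at most 0.0633 CPM. Ciita itself, at 0.734 to 0.982 CPM there, is compressed by it more than the classical chains are.

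The other genes of the pathway were taken in lists, whose counts of called genes stand beside the shares over all genes tested. With edgeR these shares were 17.4% higher and 17.9% lower for parabiotic cells against microglia, 8.88% and 4.79% for transgenic cells against microglia, and 7.63% and 2.42% for transgenic against parabiotic cells. They were 27.4% and 26.6%, 9.96% and 5.69%, and 13.3% and 9.23%, in the same order, without transgenic replicates 26 and 27.

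Of 7 genes of the promoter-binding complex, which brings CIITA to the promoter, 1 was higher in parabiotic cells than in microglia and 2 were lower (17.4% and 17.9% over all genes): the RFX subunit Rfxap (log2 0.56), the RFX subunit Rfx5 (-1.0) and the NF-Y subunit Nfya (-1.16; edgeR adjusted p = 0.0348, 0.0235 and 0.00386). Rfx5 was at 26.7, 24.3 and 19.6 CPM in microglia and 12.6, 8.79 and 14 CPM in parabiotic cells, the reverse of the order in Ciita. The median of the 7 was -0.13. The call of Rfx5 ended without microglia 39 or 40 or parabiotic 3 or 11 (edgeR adjusted p = 0.0596 to 0.0968) and that of Rfxap without microglia 39 or 40 or any parabiotic library (0.0696 to 0.121). In the comparisons of transgenic cells edgeR called 0 of the 7 against microglia and 0 against parabiotic cells, where 2 had an unadjusted p under 0.05 each time, DESeq2 called 1 and 2, and limma-voom called 0 in both. Without transgenic replicates 26 and 27 edgeR called 0 against microglia (1 at an unadjusted p under 0.05) and 2, both higher, against parabiotic cells (13.3% over all genes).

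Among 13 inducers and repressors of Ciita, 2 were higher and 3 lower in parabiotic cells than in microglia, where 17.4% and 17.9% of all genes were. Irf1, a transcription factor of the interferon-γ response, was at 369.2, 240.5 and 219.7 CPM in microglia and 87.1, 62.4 and 91.2 CPM in parabiotic cells (log2 -1.78 ± 0.24, SE, edgeR adjusted p = 0.000235). The myeloid factor Irf8 had -0.58 ± 0.17, while the kinase Jak2 had 1.54 ± 0.29 and Irf4, a factor of dendritic and B cells, 2.31 ± 0.68 (SE, edgeR adjusted p = 0.0224, 0.00178 and 0.021). In this comparison the cells with more Ciita transcript had less Irf1 transcript. Irf1 was intermediate in transgenic cells, at 121.4 to 180.7 CPM. It was lower than in microglia (log2 -0.92 ± 0.22, SE, edgeR adjusted p = 0.0208) and higher than in parabiotic cells (0.87 ± 0.23, SE, 0.0325). With edgeR it was the 1 gene of the 13 called in either comparison. DESeq2 called 5 and 1 of the 13, and limma-voom 1 and 1, against microglia and against parabiotic cells. With a term for transgenic replicates 26 and 27 the difference of Irf1 from parabiotic cells no longer passed (log2 0.66, edgeR adjusted p = 0.103). These calls ended for Irf8 without microglia 40 or 41 or parabiotic 3 or 11, and for Irf4 without microglia 40 or 41 or parabiotic 3. For Irf1 in transgenic cells they ended without microglia 39 against microglia and, against parabiotic cells, without parabiotic 3, 11 or 15 or transgenic 26 (edgeR adjusted p = 0.0573 to 0.144 over all of these). Irf4 was at 1.95 CPM in transgenic replicate 26 and at 18.5 to 24.1 CPM in the other transgenic libraries. Without transgenic replicates 26 and 27, 3 of the 13 genes were higher and 2 lower in transgenic cells than in microglia (9.96% and 5.69% of all genes), 1 was higher and 1 lower against parabiotic cells (13.3% and 9.23%), and 4 were higher and 4 lower in parabiotic cells than in microglia (27.4% and 26.6%), while Irf1 between the CD11c groups no longer passed (edgeR adjusted p = 0.0613).

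Of 9 genes of endosomal antigen processing, 3 were higher and 2 lower in parabiotic cells than in microglia, where 17.4% and 17.9% of all genes were. In transgenic cells 2 were higher and 1 lower than in microglia (8.88% and 4.79% of all genes), and 2 were higher and 2 lower than in parabiotic cells (7.63% and 2.42%). Napsa, an aspartic protease, was at 0.348 to 0.452 CPM in microglia, 242.4 to 341.9 CPM in parabiotic cells and 123.8, 127.8, 35.3 and 97.3 CPM in transgenic replicates 23, 24, 26 and 27. Its log2 fold change of 9.51 ± 0.56 exceeded that of every member (SE, edgeR adjusted p = 2.18e-06), and it was also higher in transgenic cells than in microglia (7.89 ± 0.52, SE, 1.98e-05) and lower than in parabiotic cells (-1.61 ± 0.34, SE, 0.0123). Ifi30, a lysosomal thiol reductase, was higher in parabiotic cells (log2 1.17), as was the cathepsin gene Ctsh (0.66), and the cathepsin gene Ctsl (-1.64) and the cathepsin inhibitor Cst3 (-1.95) were lower (edgeR adjusted p = 0.000285, 0.00644, 0.00194 and 0.000334). In transgenic cells Ctsh was higher than in microglia (0.49) and Cst3 lower (-0.98), and against parabiotic cells Ctsl (1.67) and Cst3 (0.96) were higher and Ifi30 lower (-0.68; edgeR adjusted p = 0.0446, 0.026, 0.00464, 0.0382 and 0.0149). With a term for transgenic replicates 26 and 27 neither Ctsh (0.36) nor Cst3 (-0.75) passed against microglia (edgeR adjusted p = 0.137 and 0.136), and without these libraries Ctsh did not pass (0.36, edgeR adjusted p = 0.0737) and Ctsl against parabiotic cells had a log2 fold change of 1.01. The transgenic call of Ctsh also ended without any microglial or parabiotic library or transgenic 26, that of Cst3 against microglia without any microglial library, and that of Cst3 against parabiotic cells without any 1 library other than transgenic 27. Those of Ifi30 and Napsa between the CD11c groups ended without parabiotic 3, for Ifi30 also 15 (edgeR adjusted p = 0.0557 to 0.17 over all of these). Without transgenic replicates 26 and 27, 4 of the 9 were higher and 4 lower in parabiotic cells than in microglia (27.4% and 26.6% of all genes). In transgenic cells 1 was then higher and 2 were lower than in microglia (9.96% and 5.69%), and 2 were higher and 2 lower than in parabiotic cells (13.3% and 9.23%).

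Among 9 genes of surface turnover and tetraspanins, 0 were higher and 5 lower in parabiotic cells than in microglia (17.4% and 17.9% of all genes): March8, a ubiquitin ligase, Cd83, which protects class II from ligase-driven loss, and the tetraspanins Cd9, Cd37 and Cd81. March8 had a log2 fold change of -0.45 ± 0.14 (SE, edgeR adjusted p = 0.028), a call that ended without microglia 39, 40 or 41 or parabiotic 3 or 11 and with no filter on low counts (0.0566 to 0.132), which left 4 of the 9. Cd81 fell furthest, from 1969 to 2185 CPM in microglia to 43.9 to 72.8 CPM in parabiotic cells (log2 -5.24 ± 0.36, SE, edgeR adjusted p = 4.3e-06), with 586.1 to 1507 CPM in transgenic cells. Cd83 had -1.51 ± 0.19 and Cd37 -1.54 ± 0.22 (SE, edgeR adjusted p = 0.000157 and 0.000346). Cd81, Cd83, Cd9 and Cd37, 4 of the 9, were higher in transgenic than in parabiotic cells (7.63% of all genes, with 0 of the 9 lower), with log2 4.36 for Cd81, 0.98 for Cd83 and 1.16 for Cd9 (edgeR adjusted p = 3.99e-05, 0.00573 and 0.0217), the direction opposite to that of the class II members. Against microglia edgeR called Cd37 alone in transgenic cells (log2 -0.73 ± 0.20, SE, edgeR adjusted p = 0.0372; 4.79% of all genes lower), where DESeq2 called 4 of the 9 and limma-voom 1. With a term for transgenic replicates 26 and 27 neither Cd37 against microglia (-0.67) nor Cd9 against parabiotic cells (1.03) passed (edgeR adjusted p = 0.136 and 0.0644). The call of Cd37 against microglia ended without any microglial library, parabiotic 11 or 15 or transgenic 24, and that of Cd9 against parabiotic cells ended without any parabiotic library (edgeR adjusted p = 0.0549 to 0.112 for both). Cd37 against parabiotic cells (log2 0.81, edgeR adjusted p = 0.0303) lost its call without any microglial or parabiotic library or transgenic 23 or 26, and with only the 2 groups in the fit (0.0513 to 0.151). Without transgenic replicates 26 and 27, 2 of the 9 were lower in transgenic cells than in microglia (5.69% of all genes), 4 were higher and 1 lower than in parabiotic cells (13.3% and 9.23%), and 2 were higher and 6 lower in parabiotic cells than in microglia (27.4% and 26.6%).

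The last list held 18 tested genes in or near the class II region. Of these, 4 were higher and 1 was lower in parabiotic cells than in microglia (17.4% and 17.9% of all genes). In transgenic cells 1 was higher and 2 were lower than in microglia (8.88% and 4.79%), and 1 was higher than in parabiotic cells (7.63%). H2-Eb2, the β chain gene beside H2-Eb1 whose upstream stretch is shown above, had 0 counts in every microglial library, 157, 123 and 226 counts in parabiotic replicates 3, 11 and 15, and 131, 85, 13 and 10 counts in transgenic replicates 23, 24, 26 and 27. Over the groups this was at least 159.8-fold higher in parabiotic and at least 50.2-fold higher in transgenic cells (at least 98.1-fold over replicates 23 and 24 alone), against a floor of 3 counts over the 3 microglial libraries that covers counting error only. The other higher neighbours were Gpsm3 (log2 0.89), the immunoproteasome subunit gene Psmb8 (0.72) and Col11a2 (1.16, edgeR adjusted p = 0.0346), of which Col11a2 lost its call without any microglial library or parabiotic 3 or 15 and with no filter on low counts (0.0551 to 0.133). The endothelial receptor gene Notch4 was lower in parabiotic cells (-3.20 ± 0.33, SE, edgeR adjusted p = 3.98e-05) and higher in transgenic than in parabiotic cells (2.32 ± 0.31, SE, 0.00089), and Tap1, a peptide transporter gene of the class I pathway, and Rxrb were lower in transgenic cells than in microglia (-0.91 and -0.56, edgeR adjusted p = 0.0437 and 0.041). With a term for transgenic replicates 26 and 27 neither Tap1 (-0.59) nor Rxrb (-0.36) passed (edgeR adjusted p = 0.208 and 0.125). Calls ended for Psmb8 without microglia 39 or 40 or parabiotic 15, for Tap1 without any microglial or parabiotic library or transgenic 26, for Rxrb without any of those or transgenic 27, and for H2-Eb2 in transgenic cells without microglia 39 or 40 (edgeR adjusted p = 0.0501 to 0.159 over all of these). Without transgenic replicates 26 and 27, 5 of the neighbours were higher and 3 lower in parabiotic cells than in microglia (27.4% and 26.6% of all genes), and the counts in the other comparisons were as with them.

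**Figure D5:**
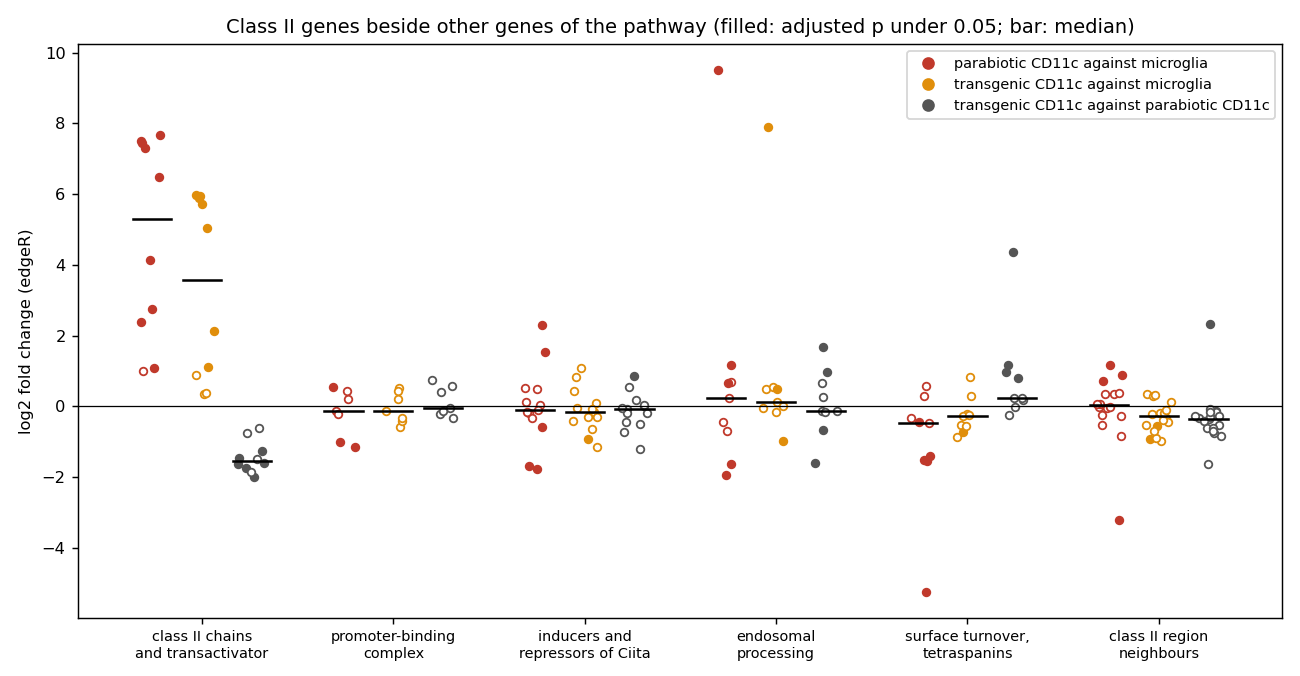
Log2 fold changes (edgeR) of the 10 class II genes and of 5 lists of other genes of the pathway or region in the 3 comparisons; filled points have an adjusted p under 0.05, bars are medians, and H2-Eb2 is left out against microglia, where it had 0 counts. The class II genes have medians of 5.31, 3.58 and -1.55, and the medians of the other lists lie between -0.47 and 0.25.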

How the data were processed

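RNA of sorted cells was amplified with a template-switching kit for low input and made into unstranded libraries, from 1 or 5 ng of RNA, with no molecular identifiers and no amount given per library. Per the submitters' processing notes FastQC 0.11.5, STAR 2.5.3a, DESeq2 and the build GRCm38 were used. Which counter, annotation and strand setting the authors used is not given in the sources here. The deposited table holds whole-number counts by Ensembl gene, 31534625 to 41730688 per library, of which 28492 of 28585 genes matched GENCODE M21. At this depth the spread between replicates sets the precision more than counting error. The labels do not say whether replicates are separate mice, so p-values measure only the spread among these samples, which may be technical.

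Genes were filtered with filterByExpr (15151 kept, 13434 removed), scaled by TMM and tested by quasi-likelihood in edgeR 4.0.16 (robust dispersion, R 4.3.3), all 10 libraries in 1 fit, with Benjamini-Hochberg adjustment over all genes and a threshold of 0.05 (common dispersion 0.1). SE is the log2 fold change divided by the root of F. Ratios had 0.5 count added to each sum and were tested by exact permutation (scipy 1.17.1). Profile distances used a pseudocount of 0.5 CPM. The procedure was tested on simulated data. Alternatives were RLE and upper quartile scaling, no filter or at least 5 CPM in at least 3 libraries, the DESeq2 1.42.0 Wald test, limma-voom (limma 3.58.1), only the 2 groups compared, a term for transgenic replicates 26 and 27, non-robust dispersion, each library left out in turn, and, chosen after seeing the data, leaving out transgenic 26 and 27 together.

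The members and gene lists were chosen with earlier results of these data known. Named genes are the members, up to 3 genes per list and comparison with the lowest p in the direction with more calls and up to 2 in the other, the 5 closest profiles to Ciita and to the classical chains, and Itgax and Cx3cr1, which drive the reporters. Some genes that the rule names are not reported here. March8, Cd9 against microglia, Cd37 against parabiotic cells, Col11a2 and H2-Ea-ps were named after their values were seen. Cx3cr1 was at 1581 to 1858 CPM in microglia, 465.4 to 829.7 CPM in parabiotic cells and 268.1 to 2794 CPM in transgenic cells.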

Additional observations from a re-analysis of the deposited data

Results flagged for a closer look

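In the transgenic group the log2 ratio of H2-DM counts to classical chain counts held a library that lay far from the others: replicate 26 had a ratio of 0.102, where replicates 23, 24 and 27 had 0.0471, 0.0466 and 0.0469. Its gap to the nearest library was 0.986 of the range of the group, above the critical value of 0.829 for 4 libraries. Chance puts about 1 in 20 groups above that value, and 18 quantities were screened in this group (10 members and 8 ratios), so about 1 is expected by chance. Replicate 26 had the lowest classical chain levels of the 4 (H2-Ab1 1057 CPM) with H2-DMa at 161 CPM, and replicate 27 had both lower H2-DMa (102.9 CPM) and higher H2-Ab1 (1918 CPM).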

How the results depend on the processing

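No paired analysis was possible because no replicate number is shared between the groups. Over the 20 alternatives and the 3 comparisons, the log2 fold changes of the members kept their direction in all 600 values; 531 kept their side of the threshold, 51 lost a call and 18 gained one. Against microglia the count of higher members ranged from 9 to 10 of 10 in parabiotic cells and, with 1 library left out, from 5 to 7 in transgenic cells, with 5 under limma-voom or with only the 2 groups in the fit, and 10 without transgenic 26 and 27. Between transgenic and parabiotic cells the count of 6 became 2 with no filter on low counts and 1 with only the 2 groups compared, and ranged from 0 to 7 with 1 library left out (0 without parabiotic 3 or 15, with 8 and 7 at an unadjusted p under 0.05); the cause was not tested. Of 184 alternative values of ratios, 7 changed sign, all of them small differences that no test called. With 1 library left out, the log2 difference ranged from -0.01 to 0.13 for H2-Aa/H2-Ab1 between transgenic and parabiotic cells (negative without transgenic 26) and from -0.09 to 0.08 for H2-O/H2-DM between parabiotic cells and microglia (-0.02 without parabiotic 3 or 15, -0.09 without microglia 39). For Ciita/classical chains it ranged from -0.16 to 0.08 between parabiotic cells and microglia (positive without microglia 41), from -0.49 to 0.19 between transgenic cells and microglia, and from -0.44 to 0.24 between transgenic and parabiotic cells (both positive without transgenic 27). Of 300 alternative counts of called genes in the other lists 66 moved by over 1.5 times, and of 130 levels per kilobase 16 moved by more than the spread between replicates. Depth limits Ciita in microglia (25 to 32 counts per library) and H2-Eb2.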
